A study of Homo sapiens with 6 samples.

Results

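The glycolysis and hypoxia-response genes examined here are 36 genes given as a fixed list of symbols, of 62492 genes in the deposited tables. They comprise 17 glycolytic enzymes, 4 regulators of glycolytic flux, 4 transporters of sugar or lactate, 10 other targets of the hypoxia-inducible factors (HIFs), and HIF1A itself. Each symbol was matched to 1 row by its Ensembl identifier, and all 36 genes had enough counts to be among the 17000 genes tested. RNA-seq of polyA RNA was performed in HCT116, a human colorectal carcinoma line, after transfection with a control siRNA (siControl) or an siRNA to NONO (siNONO), an RNA-binding protein of nuclear paraspeckles. There were 3 siControl and 3 siNONO libraries, in 3 Sets that each held 1 siControl and 1 siNONO library. The siRNAs were used at 20 nM with the lipofectamine RNAiMAX reagent. In the labels all 6 samples are of the HCT116 line kept in DMEM with serum and antibiotics in a CO2 incubator, and no low-oxygen treatment is given. A single siNONO treatment was sequenced, so the loss of NONO and any other action of that siRNA cannot be told apart. The labels do not say whether a Set was a separate culture, so the p-values measure the spread between these samples only. In fits with the Set as a block, that is the spread left after differences between Sets are taken out.

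Glycolysis converts glucose to pyruvate, and lactate dehydrogenase interconverts pyruvate and lactate. The HIFs are transcription factors made of an oxygen-regulated alpha subunit, such as HIF1A, and the partner ARNT. When oxygen is plentiful, prolyl hydroxylases mark the alpha subunit for degradation through VHL, and when it is scarce the HIFs bind short DNA elements and raise many glycolytic genes together with genes of angiogenesis, pH control and mitophagy. Colorectal carcinoma lines commonly express glycolytic genes at high levels in ordinary culture as well.

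Each library had between 21765393 and 32659002 estimated counts, of which the 36 genes took 1.66% to 1.70% in siControl and 1.42% to 1.49% in siNONO. NONO fell to 18.9% of its siControl level, from 502 ± 11.8 to 95.1 ± 5.43 CPM (counts scaled to the size of the library; SD, n = 3). Counts of mitochondrial genes made up 8.80% to 9.15% of the total in siControl and 9.61% to 10.8% in siNONO, a difference that moved with the groups and whose part in the results was not tested. Of 9 epithelial markers, 7 were at 1 TPM or more in every library (TPM, transcript abundance scaled by RSEM for length and library size), with a summed level of 2881 to 3016 TPM in siControl and 2722 to 3013 TPM in siNONO, while CDX1 was listed at 0 and VIL1 stayed at 0.17 TPM or less. Of the 7 epithelial markers tested, edgeR called 3 higher, EPCAM at 0.32, KRT19 at 0.14 and KRT20 at 1.00 on the log2 scale, while limma on log2(TPM + 1) called 2 higher and KRT8 lower. The part of these markers in the results was not tested. Among markers of other cells, fibroblast markers summed to 16.7 to 19.3 TPM in siControl and 16.4 to 18.5 TPM in siNONO, nearly all of it COL1A1, and endothelial markers to at most 0.34 TPM. Leukocyte markers summed to 2.36 to 5.67 TPM in siControl and 6.44 to 6.93 TPM in siNONO, nearly all of it CD68. PTPRC and CD3E were at 0.04 TPM or less. The 1 leukocyte marker with enough counts to be tested was called higher by edgeR, at 1.40 on the log2 scale. In bulk RNA, fewer cells of a type and less RNA per cell cannot be told apart.

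Sequences upstream of 5 genes are shown as examples and do not stand for the whole list. The genes are the lactate dehydrogenase genes LDHA and LDHB, which moved in opposite directions, and PGK1, BNIP3 and ADM, which fell. Each is the 250 bases before an annotated start in RefSeq on GRCh38.p14, 5′ to 3′ on the gene's own strand. Capitals mark ACGTG or GCGTG, the core of the element bound by HIFs, on either strand, so that CACGT and CACGC are the same letters read from the other strand and CACGTG holds the motif on both. The windows are at chr11:18394313-18394562 (plus strand) for LDHA, chr12:21657843-21658092 (minus strand) for LDHB, chrX:78103998-78104247 (plus strand) for PGK1, chr10:131981924-131982173 (minus strand) for BNIP3 and chr11:10304823-10305072 (plus strand) for ADM.
LDHA: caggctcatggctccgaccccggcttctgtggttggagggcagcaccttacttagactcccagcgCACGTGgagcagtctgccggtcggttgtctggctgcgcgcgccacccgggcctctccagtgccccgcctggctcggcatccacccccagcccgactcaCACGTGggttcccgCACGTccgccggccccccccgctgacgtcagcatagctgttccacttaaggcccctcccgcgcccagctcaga
LDHB: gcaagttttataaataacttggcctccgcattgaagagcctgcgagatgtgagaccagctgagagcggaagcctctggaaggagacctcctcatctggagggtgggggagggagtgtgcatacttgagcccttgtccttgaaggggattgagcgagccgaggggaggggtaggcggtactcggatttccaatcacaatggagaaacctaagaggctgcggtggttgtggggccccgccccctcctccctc
PGK1: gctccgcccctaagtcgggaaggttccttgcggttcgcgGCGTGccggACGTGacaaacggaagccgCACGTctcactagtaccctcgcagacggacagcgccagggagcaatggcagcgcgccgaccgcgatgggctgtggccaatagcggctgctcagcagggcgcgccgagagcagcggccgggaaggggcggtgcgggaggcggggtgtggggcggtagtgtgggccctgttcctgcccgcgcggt
BNIP3: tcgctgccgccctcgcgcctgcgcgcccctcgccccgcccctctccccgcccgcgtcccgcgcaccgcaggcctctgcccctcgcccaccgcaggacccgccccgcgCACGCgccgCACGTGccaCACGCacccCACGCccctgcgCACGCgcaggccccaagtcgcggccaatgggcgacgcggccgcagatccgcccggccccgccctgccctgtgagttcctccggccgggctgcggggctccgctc
ADM: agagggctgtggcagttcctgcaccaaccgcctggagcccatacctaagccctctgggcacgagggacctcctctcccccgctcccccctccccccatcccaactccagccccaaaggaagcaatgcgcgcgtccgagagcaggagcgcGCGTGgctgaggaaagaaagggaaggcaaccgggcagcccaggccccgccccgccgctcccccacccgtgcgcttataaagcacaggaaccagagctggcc

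The LDHA window held 5 matches, the BNIP3 window 6, the PGK1 window 3 and the ADM window 1, whereas the LDHB window held 0. LDHA has a further start with a window that held 1 match. Windows were had for 30 of the 36 genes, and 25 of the 30, or 83.3%, had a match before at least 1 of their starts. Over all symbols in the RefSeq table the share was 47.4% of 27305, and over single windows it was 57.9% for the listed genes and 43.2% for all. A match was present for 17 of 21 genes that fell in siNONO, 2 of 3 that rose and 6 of 6 that did neither. PKM, PGAM1, SLC2A1 and EGLN3 fell with none of these letters in their windows, and PFKM and PFKFB4 rose with a match in at least 1 window. Genes with no window in the table were BNIP3L, NDRG1, PFKFB2, SLC16A1, SLC2A3 and VEGFA.

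In siNONO, 23 of the 36 genes were lower and 5 were higher than in siControl. A gene is said to fall, rise or be called where its Benjamini-Hochberg adjusted p over the 17000 genes reached 0.05 or less in edgeR (quasi-likelihood test, Sets as blocks). The genes that fell made up 63.9% of the list, where 23.4% of all genes tested fell, without matching for expression level. Those that rose made up 13.9% of the list, where 23.2% of all genes tested rose and 46.6% changed in either direction. Each of the 28 changed genes moved in the same direction in all 3 Sets. The calls were made on these same Sets and favour such agreement, so it is no added evidence. The 5 that rose were PFKM, LDHB, PFKFB2, PFKFB4 and SLC2A3, and the 8 that did neither were HK1, ALDOC, SLC16A1, SLC16A3, CA9, NDRG1, EGLN1 and P4HA1. By CPM, scaled with edgeR's TMM factors, 19 genes had every siNONO library below every siControl library and 6 had every one above, where 24.0% and 23.9% of all genes tested did so. The changes were small for most genes. The list had a median log2 fold change of -0.15, beside -0.0048 for all genes, whose quartiles were -0.22 and 0.21. Of the 28 changed genes 3, BNIP3L, ADM and PFKFB2, did so by 0.5 or more on the log2 scale. Whether called or not, 11.1% of the list reached that size, beside 17.0% of all genes tested. Annotated exons of 23 of the 36 genes overlap those of another gene, and for 8 of them the other gene's count reached 5% of their own in at least 1 library (ANKRD37, BNIP3L, CA9, PDK1, PFKFB2, PFKM, PGK1 and SLC16A3). The other gene lies on the opposite strand except for PGK1, where it is ATP7A on the same strand. Whether RSEM was set to use strand is not given in the sources used here, so how reads were divided between the overlapping genes is uncertain.

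**Figure D1:**
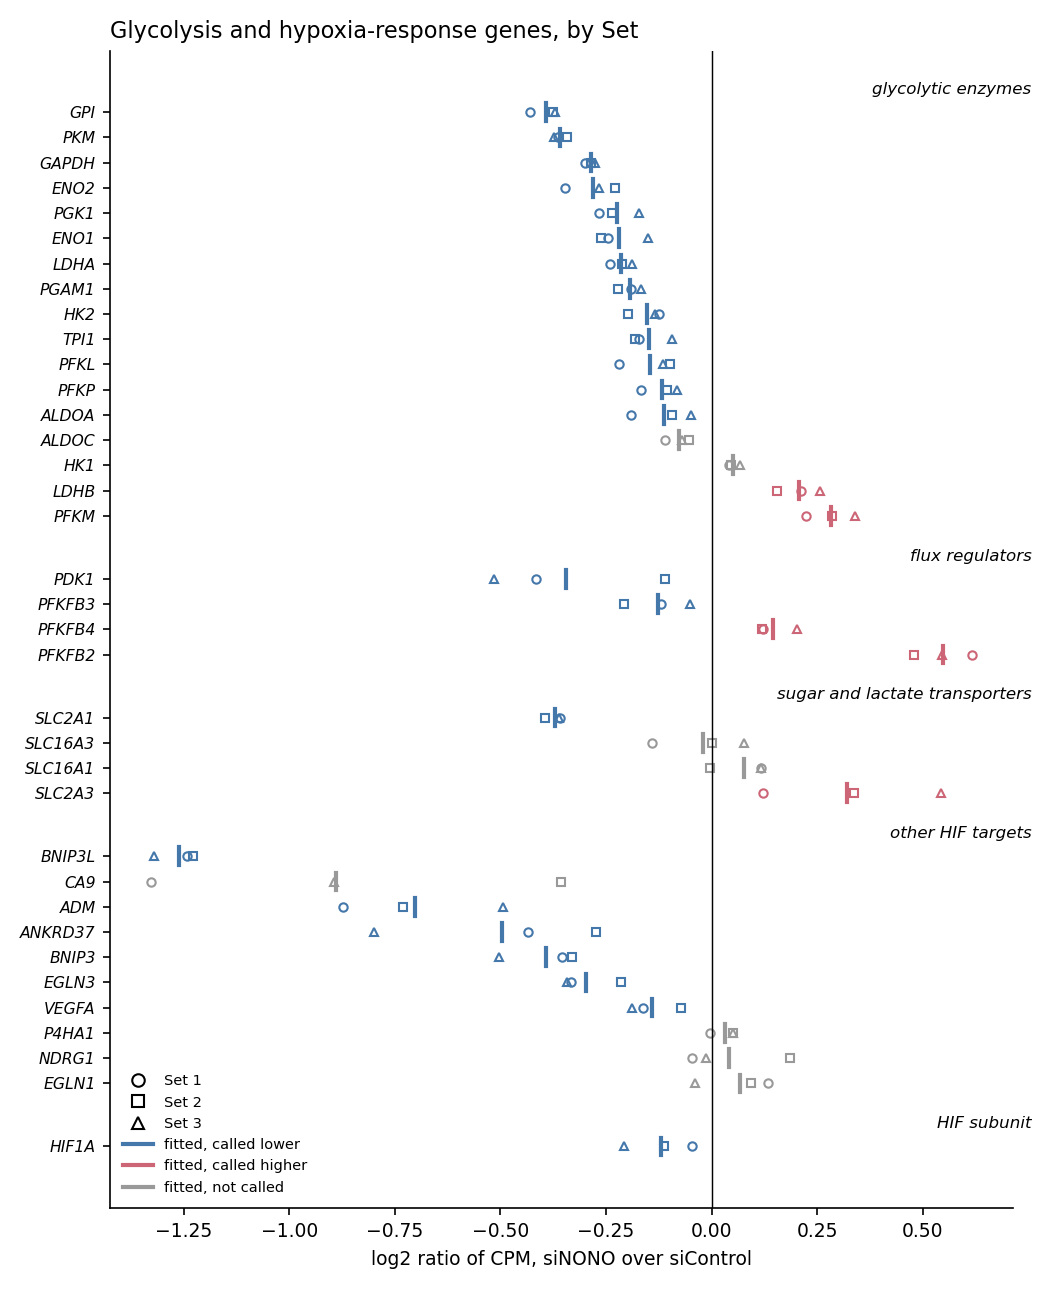
Log2 ratio of CPM (siNONO over siControl, horizontal axis) in Sets 1, 2 and 3 (open symbols) for each of the 36 genes, grouped by role, with the fitted log2 fold change as a bar coloured by the edgeR call. Most glycolytic enzymes lie between -0.39 and -0.11, while the other HIF targets spread from -1.26 to 0.07.

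The same comparison on the log2(TPM + 1) scale gave a lower balance. There limma, with the Set as a block, called 19 of the 36 genes lower and 1 higher, where it called 21.3% of all genes lower and 9.66% higher. Of all genes it called, 31.3% were higher, against 49.7% of those that edgeR called on counts, and the median of all genes was -0.07. A direction for a gene near 0 therefore depended on the scale, and HK1, NDRG1 and P4HA1, at 0.05, 0.04 and 0.03 on the count scale, were at -0.024, -0.022 and -0.055 on the TPM scale.

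Most glycolytic enzymes fell, by 0.11 to 0.39 on the log2 scale. Of the 17, 13 were lower and 2 higher, and HK1 and ALDOC did neither. The shares were 76.5% and 11.8%, beside 23.4% and 23.2% of all genes tested. The latter shares take in genes of all levels. In abundant genes smaller changes can be called, as the SE was 0.0244 for GAPDH and 0.394 for the scarce CA9. ALDOA and PFKP were called lower although 36.6% and 35.8% of all genes tested had lower log2 fold changes. Shares among genes of like level were not computed. Their log2 fold changes had a median of -0.15 and quartiles of -0.22 and -0.11. Within Sets 1, 2 and 3 the median was -0.19, -0.20 and -0.13. The largest fall was that of GPI, glucose phosphate isomerase, at -0.39. No enzyme changed by 0.5 or more, where 17.0% of all genes tested did so, called or not. On the TPM scale limma called 14 lower and 1, PFKM, higher.

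Early steps of the pathway showed the widest range. HK2, an inducible hexokinase, fell by 0.15 on the log2 scale (SE 0.0347, edgeR adjusted p = 0.00306), while HK1, the widely expressed hexokinase, was at 0.05 (SE 0.0325, edgeR adjusted p = 0.221) although its siNONO libraries all lay above its siControl libraries in CPM. The call of HK2 was lost without either library of Set 2 (adjusted p = 0.0829 and 0.0576). GPI was at 592, 588 and 597 CPM in siControl and at 439.8, 453 and 462 CPM in siNONO, a log2 fold change of -0.39 (SE 0.0283, edgeR adjusted p = 2.40e-07). The GPI groups were far apart, and each Set showed the fall. It and other genes shown per library outside the rule were chosen after their values were seen. The 3 subunits of phosphofructokinase, the committed step, did not move together. PFKL, the liver-type subunit, fell by 0.14 and PFKP, the platelet-type subunit, by 0.12, whereas PFKM, the muscle-type subunit, was at 142, 141 and 144 CPM in siControl and at 166, 172 and 182 CPM in siNONO. The PFKM groups did not overlap, and its log2 fold change was 0.28 (SE 0.0334, edgeR adjusted p = 1.88e-05). The calls of PFKL and PFKP were lost without the Set as a block (adjusted p = 0.0858 and 0.0836) and without either library of Set 1 (adjusted p from 0.0905 to 0.146), and that of PFKP without siControl Set 2 (adjusted p = 0.0632). Exons of PFKM overlap those of SENP1 on the opposite strand, whose count was 13.6% to 21.9% of that of PFKM and which fell by 0.32 (SE 0.0614, edgeR adjusted p = 0.000895).

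From aldolase to pyruvate, each enzyme of the list other than ALDOC fell. ALDOA, the main aldolase, fell by 0.11 (SE 0.0313, edgeR adjusted p = 0.0106), a call that was lost without the Set as a block (adjusted p = 0.117) and without Set 1 of either group (adjusted p = 0.290 and 0.248) or siControl Set 2 (adjusted p = 0.0652). ALDOC, the brain-type aldolase, was at -0.08 (SE 0.0337, edgeR adjusted p = 0.0766), and it was called lower on the TPM scale (adjusted p = 0.0229 by limma) and with scaling by library size alone (adjusted p = 0.0370). TPI1, triosephosphate isomerase, fell by 0.15, PGK1, phosphoglycerate kinase, by 0.22 and PGAM1, phosphoglycerate mutase, by 0.19. GAPDH, the glyceraldehyde phosphate dehydrogenase often used as a reference gene, was at 3889, 4027 and 4112 CPM in siControl and at 3162, 3305 and 3398 CPM in siNONO. These groups did not overlap, and the log2 fold change was -0.29 (SE 0.0244, edgeR adjusted p = 1.07e-06). The enolases ENO1, the ubiquitous form, and ENO2, the neuronal form, fell by 0.22 and 0.28. PKM, pyruvate kinase, was at 2342, 2298 and 2434 CPM in siControl and at 1821, 1814 and 1880.3 CPM in siNONO, with a log2 fold change of -0.36 (SE 0.0253, edgeR adjusted p = 1.91e-07). The Sets agreed closely for both genes, with log2 ratios of -0.36, -0.34 and -0.37 for PKM and of -0.30, -0.29 and -0.28 for GAPDH.

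The subunits of lactate dehydrogenase moved in opposite directions. LDHA, the subunit that predominates in muscle and in many tumours, on the plus strand of chromosome 11 from 18416107 to 18429972 in GRCh37, was at 1155, 1148 and 1058 CPM in siControl and at 978, 991 and 928 CPM in siNONO. Its log2 fold change was -0.21 (SE 0.0267, edgeR adjusted p = 2.96e-05), and the groups did not overlap. LDHB, the subunit that predominates in heart, was at 866, 905 and 848 CPM in siControl and at 1003, 1007 and 1012 CPM in siNONO, above every siControl library, with a log2 fold change of 0.21 (SE 0.0287, edgeR adjusted p = 7.26e-05). On the log2(TPM + 1) scale LDHB was at 0.12 and was not called (adjusted p = 0.0534 by limma), although its TPM groups did not overlap either. As the sequences above show, the LDHA window holds the HIF core motif and the LDHB window does not. Over the list a match was present for 17 of 21 genes that fell, 2 of 3 that rose and 6 of 6 that did neither. Whether the motif bears on the direction of LDHA or LDHB was not tested.

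**Figure D2:**
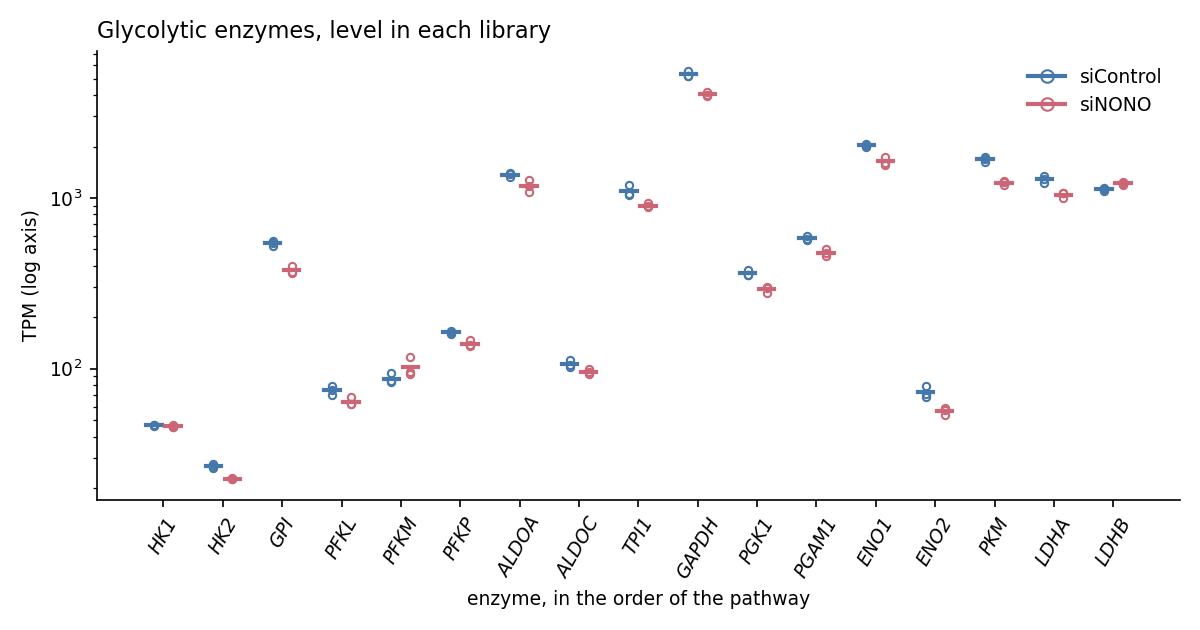
TPM of the 17 glycolytic enzymes (log axis) in the order of the pathway, with a circle for each library and a bar for the mean of 3 siControl and 3 siNONO libraries. GAPDH is the highest at 5291 TPM in siControl and 4053 TPM in siNONO, and LDHB is the 1 enzyme above 1000 TPM that is higher in siNONO.

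Levels were compared between genes in TPM, which RSEM scales for gene length. In siControl, GAPDH was highest at 5291 ± 205 TPM (SD, n = 3), followed by ENO1 at 2028 ± 34.8 TPM, PKM at 1684 ± 64.1 TPM, ALDOA at 1365 ± 39.0 TPM, LDHA at 1282 ± 58.3 TPM, LDHB at 1121 ± 24.1 TPM and TPI1 at 1098 ± 84.4 TPM. In this order the libraries of LDHB and TPI1 overlapped, as did those of ALDOA and LDHA. HK2 was lowest among the enzymes at 26.9 ± 0.629 TPM, and HK1 was at 46.7 ± 0.390 TPM. Of the 7 enzymes at 1000 TPM or more, 6 fell and 1, LDHB, rose. The summed level of the 17 enzymes was 15849, 15618 and 16327 TPM in siControl and 12733, 12694 and 13375 TPM in siNONO, and its mean fell by 18.8%. The summed level of the other HIF targets fell by 19.5%, from 392 ± 16.8 to 316 ± 15.2 TPM (SD, n = 3), but on a far smaller total. Both sums are in TPM, and on the log2(TPM + 1) scale the median of all genes was at -0.07. The fall of the other HIF targets was uneven. Mean TPM went from 58.1 to 25.6 for BNIP3L, from 46.3 to 27.4 for ADM and from 44.2 to 32.0 for BNIP3. It moved less for NDRG1 (95.9 to 94.4), EGLN1 (38.3 to 38.6) and P4HA1 (43.6 to 41.9).

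Because the members of an enzyme family moved unequally, their shares of the summed TPM of the family shifted. LDHB made up 45.7%, 47.0% and 47.3% of LDHA and LDHB together in siControl and 53.5%, 52.9% and 55.1% in siNONO. PFKM made up 25.6%, 26.8% and 27.8% of the phosphofructokinase subunits in siControl and 31.9%, 32.3% and 35.3% in siNONO. Neither share overlapped between the groups. At the same time PFKP went from 50.3% ± 1.31 to 45.8% ± 1.46 and PFKL from 22.9% ± 0.590 to 21.0% ± 0.382 (SD, n = 3), and HK2 from 36.6% ± 0.735 to 33.1% ± 0.397 of the hexokinase pair. Of BNIP3 and BNIP3L together, BNIP3 made up 43.2% ± 2.17 in siControl and 55.6% ± 1.19 in siNONO. For these 6 shares the exact permutation test, which did not pair libraries by Set, gave p = 0.1 (two-sided, adjusted p = 0.133 over the 8 shares compared). This is the smallest p that 3 against 3 unpaired libraries allow, so the test could not reach 0.05. The shares of ALDOC and ENO2 in their families overlapped between the groups, with exact permutation p = 0.7 and 0.6. The summed TPM of LDHA and LDHB was 2403 ± 77.1 in siControl and 2261 ± 39.1 in siNONO. This sum fell by 5.92%, where LDHA alone fell by 18.6%. Both figures are in TPM, and on the log2(TPM + 1) scale the median of all genes was itself at -0.07. By the fitted log2 fold changes on counts, LDHA fell by 13.8% and LDHB rose by 15.5%.

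**Figure D3:**
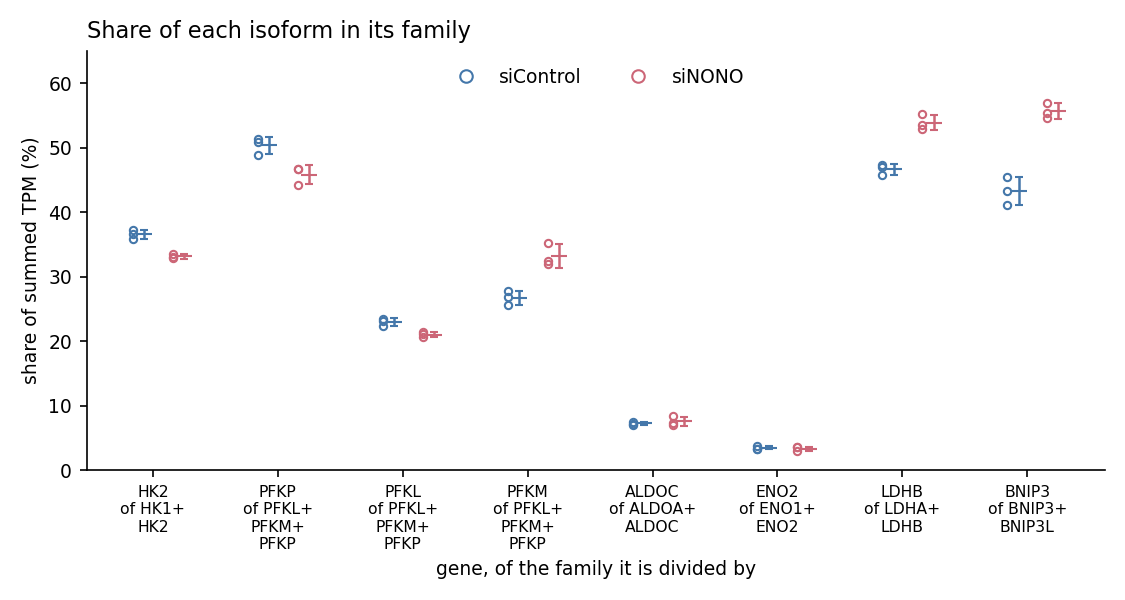
Share of the summed TPM of its family taken by each of 8 genes (%), with a circle for each library and the mean and SD of 3 libraries beside it. LDHB, PFKM and BNIP3 lie higher in siNONO and HK2, PFKP and PFKL lower, with no overlap of the groups, while ALDOC and ENO2 overlap.

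Regulators of flux were split. PFKFB2, PFKFB3 and PFKFB4 are isoforms of the enzyme that makes and breaks the fructose bisphosphate that activates phosphofructokinase. PFKFB2, on the plus strand of chromosome 1 from 207207711 to 207254369 in GRCh37, was at 17.2, 19.9 and 19.3 CPM in siControl and at 26.5, 27.8 and 28.1 CPM in siNONO. The groups did not overlap, and this was the largest rise on the list, at a log2 fold change of 0.55 (SE 0.0571, edgeR adjusted p = 6.22e-06). The rise of PFKFB2 was smaller per length, at 0.27 on the log2(TPM + 1) scale (adjusted p = 0.112 by limma), where the groups overlapped. Exons of PFKFB2 overlap those of YOD1 on the opposite strand, which had more counts than PFKFB2 in each library and was at 0.13 (SE 0.0523, edgeR adjusted p = 0.0665). PFKFB4 rose by 0.15 (SE 0.0435, edgeR adjusted p = 0.0147) and PFKFB3 fell by 0.13 (SE 0.0437, edgeR adjusted p = 0.0313). Both calls were lost without the Set as a block (adjusted p = 0.0614 and 0.158), in DESeq2 (adjusted p = 0.131 and 0.193) and on the TPM scale, that of PFKFB4 also without siNONO Set 1 (adjusted p = 0.0569), and that of PFKFB3 also without any 1 library of Sets 1 and 2 (adjusted p from 0.119 to 0.344). PDK1, the kinase that holds pyruvate out of the mitochondrial dehydrogenase complex, fell by 0.34 (SE 0.0755, edgeR adjusted p = 0.00231). Its log2 ratios of -0.42, -0.11 and -0.52 varied widely between Sets, and it was one of 2 listed genes, with ADM, whose RSEM effective length was lower in every siNONO library. On the TPM scale PDK1 was at -0.20 and was not called (adjusted p = 0.201 by limma).

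Among the transporters, SLC2A1 and SLC2A3 are the glucose transporters also known as GLUT1 and GLUT3, and SLC16A1 and SLC16A3 carry lactate. SLC2A1, on the minus strand of chromosome 1 from 43391024 to 43424564 in GRCh37, was at 280.4, 271 and 292 CPM in siControl and at 219, 206 and 227 CPM in siNONO. The groups were well apart, and the log2 fold change was -0.37 (SE 0.0293, edgeR adjusted p = 5.31e-07). SLC2A3 was far lower and rose from 12.0 ± 1.73 to 15.1 ± 0.256 CPM (SD, n = 3), at 0.32 (SE 0.0838, edgeR adjusted p = 0.00711). Its value is uncertain, since pseudogene rows held 0.693% to 53.7% of its count per library and the row of SLC2A14, a near-identical gene, was listed at 0 in all 6 libraries. DESeq2 did not call SLC2A3 (adjusted p = 0.0667), and on the log2(TPM + 1) scale it was at 0.093 and was not called either (adjusted p = 0.489 by limma). The lactate carriers were at 0.08 (SE 0.0342) for SLC16A1 and -0.02 (SE 0.0388) for SLC16A3, and their groups overlapped. Without siControl Set 2, SLC16A1 was called higher at 0.13 (adjusted p = 0.0362). SLC16A3 shares exons with CSNK1D on the opposite strand, whose count was 66.6% to 77.2% of its own.

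**Figure D4:**
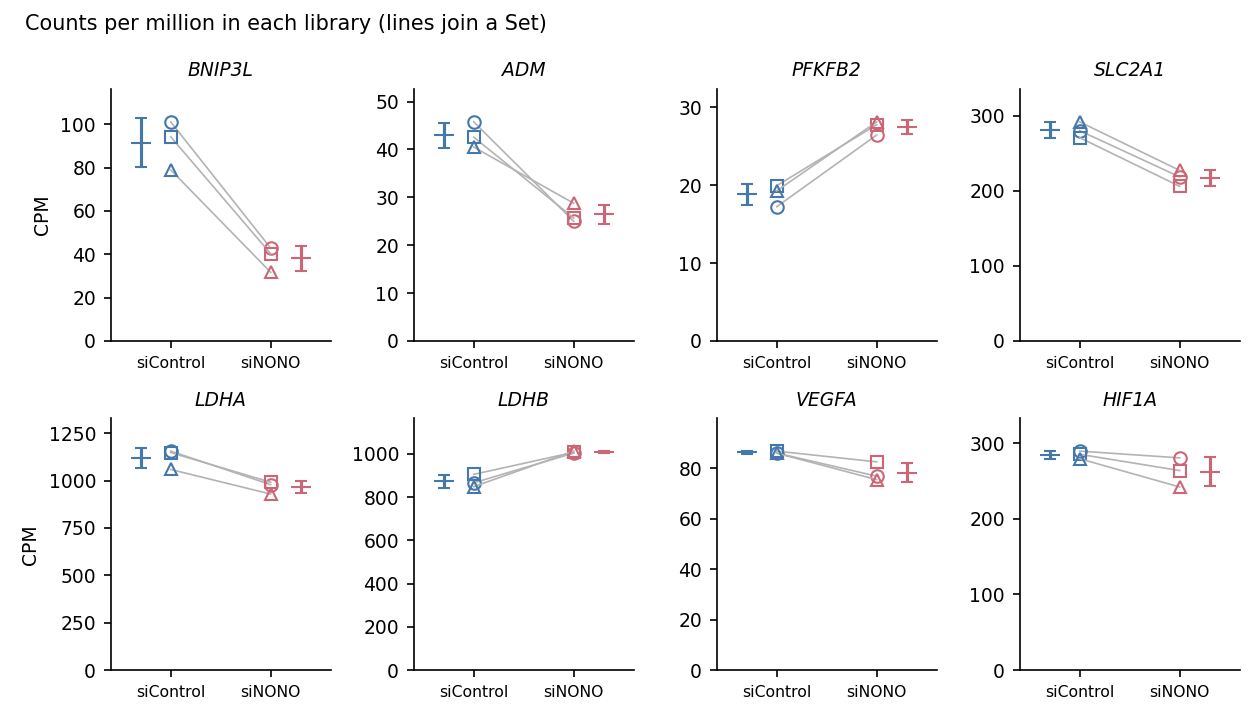
CPM in each library for 8 of the listed genes (vertical axes from 0), with lines joining the libraries of a Set and the mean and SD of 3 libraries beside each group. BNIP3L, ADM, SLC2A1, LDHA and VEGFA lie lower in every siNONO library, PFKFB2 and LDHB lie higher, and the HIF1A groups overlap.

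The other HIF targets covered a wider range than the enzymes. Of the 10, 6 fell and 0 rose by edgeR, where 23.4% of all genes tested fell and 23.2% rose. At an unadjusted p under 0.05, 7 were lower and 0 higher, where 26.4% of all genes tested were lower and 26.2% higher, and 0 rose by DESeq2 or limma as well. NDRG1, EGLN1, P4HA1 and CA9 did neither. Their median was -0.35 (quartiles -0.65 and -0.01), beside -0.15 for the enzymes. Within Sets 1, 2 and 3 it was -0.34, -0.24 and -0.42. With at least 10 counts required in every library, which leaves out CA9, it was -0.30, beside -0.15 for the enzymes. The gap depended on the scale. By limma on log2(TPM + 1) the medians were -0.30 and -0.28, and on log2(TPM + 0.1) they were -0.38 and -0.28. The edgeR values of the other HIF targets spread with an SD of 0.44 over genes, against 0.18 for the enzymes. Because the lists were chosen with results known, the difference between them was not tested. The count of 6 fell to 3 without either library of Set 1, where VEGFA, EGLN3 and ANKRD37 lost their calls, and to 3 in DESeq2.

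The mitophagy receptors BNIP3L and BNIP3 are related proteins of the mitochondrial outer membrane. BNIP3L was at 101, 94.2 and 78.9 CPM in siControl and at 42.7, 40.2 and 31.6 CPM in siNONO. The highest siNONO library lay far below the lowest siControl library. Its log2 fold change was -1.26 (SE 0.0405, edgeR adjusted p = 1.99e-10), with log2 ratios of -1.24, -1.23 and -1.32 in the Sets, and it was the 106th lowest of the 17000 genes tested. BNIP3 was at 59.1, 55.1 and 54.5 CPM in siControl and at 46.2, 43.8 and 38.4 CPM in siNONO. Its groups did not overlap, and it fell by 0.39 (SE 0.0470, edgeR adjusted p = 2.07e-05). BNIP3 has 44 pseudogene rows, which held 0.462% to 1.48% of its count, and both genes kept their calls under all 16 alternatives.

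ADM, which encodes the vasodilator peptide adrenomedullin and lies on the plus strand of chromosome 11 from 10326620 to 10328944 in GRCh37, was at 45.8, 42.6 and 40.5 CPM in siControl. In siNONO it was at 25.0, 25.7 and 28.8 CPM. The groups did not overlap, and the log2 fold change was -0.70 (SE 0.0656, edgeR adjusted p = 2.38e-06). VEGFA, the angiogenic growth factor, on the plus strand of chromosome 6 from 43737921 to 43754224 in GRCh37, was at 86.0, 86.8 and 85.9 CPM in siControl and at 76.8, 82.5 and 75.5 CPM in siNONO. Its groups did not overlap either, but the fall was small, at 0.14 on the log2 scale (SE 0.0377, edgeR adjusted p = 0.00847). The call of VEGFA was lost without the Set as a block (adjusted p = 0.0626), without either library of Set 1 (adjusted p = 0.0714 and 0.0716), in DESeq2 (adjusted p = 0.0696) and on the TPM scale (adjusted p = 0.0585 by limma).

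EGLN3, an oxygen-sensing prolyl hydroxylase, fell by 0.30 (SE 0.0811, edgeR adjusted p = 0.00920), while EGLN1, the main prolyl hydroxylase, was at 0.07 (SE 0.0413, edgeR adjusted p = 0.213). Without either library of Set 3, EGLN1 was called higher, at 0.12 (adjusted p = 0.0240 and 0.0222), and without either library of Set 1 EGLN3 was not called (adjusted p = 0.0696 and 0.0614), nor was it in DESeq2 (adjusted p = 0.154) or on the TPM scale (adjusted p = 0.0724 by limma). ANKRD37, an ankyrin repeat protein, went from 3.85 ± 0.658 to 2.72 ± 0.558 CPM (SD, n = 3), at -0.50 (SE 0.162, edgeR adjusted p = 0.0236). Its groups overlapped, and the call was lost without the Set as a block (adjusted p = 0.0552), in DESeq2 (adjusted p = 0.175) and without either library of Set 1 (adjusted p = 0.0692 and 0.0700) or Set 3 (adjusted p = 0.133 and 0.120). ANKRD37 shares exons with UFSP2 on the opposite strand, a gene with more counts than ANKRD37 in each library, which rose by 0.24. CA9, the carbonic anhydrase often taken as a marker of hypoxia, was close to the detection limit, with 24, 14 and 12 reads counted in the siControl libraries and 8, 11 and 8 in the siNONO libraries. It lay lower in every siNONO library, at a log2 fold change of -0.89 (SE 0.394, edgeR unadjusted p = 0.0434, adjusted p = 0.0843), so it did not pass the test after adjustment, and ARHGEF39, which overlaps it on the opposite strand with far more counts, was at -0.81. NDRG1, a stress-response gene, was at 0.04 (SE 0.0422), and P4HA1, a collagen prolyl hydroxylase, was at 0.03 (SE 0.0361).

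HIF1A, the alpha subunit itself, on the plus strand of chromosome 14 from 62162231 to 62214977 in GRCh37, was at 289, 285 and 279 CPM in siControl and at 280.3, 264 and 242 CPM in siNONO. The highest siNONO library lay above the lowest siControl library, so the groups overlapped. Its log2 fold change was -0.12 (SE 0.0343, edgeR adjusted p = 0.0117), with log2 ratios of -0.05, -0.11 and -0.21 in the Sets. The call was lost without the Set as a block (adjusted p = 0.119), on the TPM scale (adjusted p = 0.215 by limma), without either library of Set 2 (adjusted p = 0.0818 and 0.0556) and without siControl Set 3 (adjusted p = 0.0542). RNA levels do not report the HIF1A protein, which is set largely by its degradation and was not measured in these libraries.

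**Figure D5:**
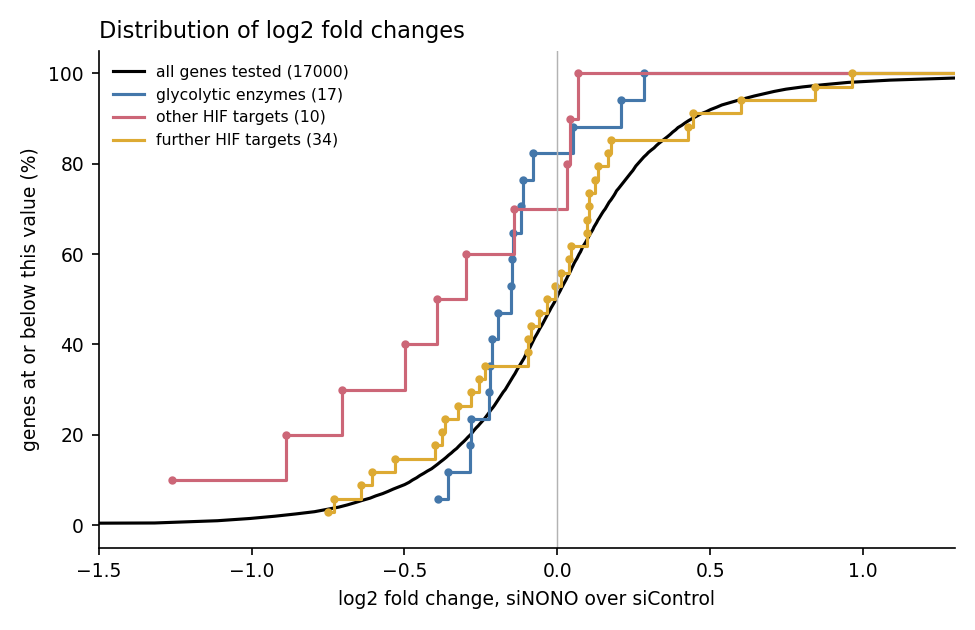
Cumulative share (%) of genes at or below each log2 fold change (siNONO over siControl) for all 17000 genes tested, 17 glycolytic enzymes, 10 other HIF targets and 34 further HIF targets. The curve of the enzymes rises steeply between -0.39 and -0.11, that of the other HIF targets starts lower, at -1.26, and that of the further HIF targets follows all genes in its middle part.

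Further genes of the same pathways did not show a common fall. Of 34 further HIF targets with enough counts, 10 were lower and 9 higher by edgeR, with a median log2 fold change of -0.02, so 29.4% fell and 26.5% rose beside 23.4% and 23.2% of all genes. HMOX1, heme oxygenase, fell by 0.75 (SE 0.0713, edgeR adjusted p = 2.84e-06), and DDIT4, an inhibitor of mTOR signalling, fell by 0.73 (SE 0.0370, edgeR adjusted p = 1.17e-08). Of 18 genes of the HIF machinery, 7 fell and 5 rose, or 38.9% and 27.8%, beside 23.4% and 23.2% of all genes. SIAH2, a ubiquitin ligase for prolyl hydroxylases, fell by 0.77 (SE 0.0477, edgeR adjusted p = 6.12e-08), ARNT2, an alternative partner of the alpha subunits, rose by 0.67 (SE 0.0737, edgeR adjusted p = 9.46e-06), and CREBBP, a coactivator, fell by 0.31 (SE 0.0382, edgeR adjusted p = 2.99e-05). ARNT, VHL and EPAS1, the HIF alpha subunit of many endothelial and epithelial cells, were picked with their values known, and they were at -0.22, -0.20 and 0.19.

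Of 28 further glycolysis genes with enough counts, 9 were higher and 4 lower, with a median of 0.05. The shares were 32.1% and 14.3%, beside 23.2% and 23.4% of all genes tested. HKDC1, a hexokinase-domain protein, rose from 8.98 ± 0.293 to 17.6 ± 0.283 CPM (SD, n = 3), at 0.97 (SE 0.0715, edgeR adjusted p = 2.94e-07). TIGAR, a fructose bisphosphatase that lowers glycolytic flux, rose by 0.55 (SE 0.0646, edgeR adjusted p = 1.87e-05), and G6PC3, a glucose phosphatase, rose by 0.44 (SE 0.0419, edgeR adjusted p = 2.61e-06). The pentose phosphate pathway branches from glycolysis at glucose phosphate, and of its 7 genes with enough counts 4 rose and 1 fell. These shares were 57.1% and 14.3%, beside 23.2% and 23.4% of all genes tested. RPIA, ribose phosphate isomerase, was at 13.8, 15.0 and 13.4 CPM in siControl and at 38.8, 39.3 and 41.0 CPM in siNONO, with groups far apart and a log2 fold change of 1.49 (SE 0.0599, edgeR adjusted p = 1.40e-09). PGD, phosphogluconate dehydrogenase, rose by 0.31 (SE 0.0294, edgeR adjusted p = 3.06e-06), and TALDO1, transaldolase, fell by 0.19 (SE 0.0320, edgeR adjusted p = 0.000300).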

How the data were processed

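RNA-seq libraries of 3 siControl and 3 siNONO samples of HCT116 cells, labelled Sets 1 to 3, were analysed. Reads were trimmed (sickle), aligned (STAR, GENCODE annotation of GRCh37) and quantified with RSEM (version 1.3.1, per the labels) by the authors. RSEM divides ambiguous reads between genes. The deposited tables give for each of 62492 genes the estimated count, not normalized, the TPM, scaled by RSEM for effective length and library size, and the effective length itself. FPKM and plain length were not used. The kit keeps strand, but the strand setting of the counting is not given in the sources used here.

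Estimated counts were rounded and tested in R (version 4.3.3) with edgeR (version 4.0.16, legacy quasi-likelihood F-test), TMM scaling and filterByExpr, with Sets as blocks. P-values were adjusted by the Benjamini-Hochberg method across the 17000 genes that passed the filter, and each SE is the size of the log2 fold change divided by the root of F. The edgeR fit was also run on simulated counts with few genes changed, a single dispersion for all genes and no Set effect. These settings differ from the data, so that run does not show how the fit performs here. Limma (version 3.58.1) on log2(TPM + 1) and on log2(TPM + 0.1), DESeq2 (version 1.42.0), other scalings, filters and test forms, pseudogene rows added to their parents, no block and each library left out in turn were the alternatives. Isoform shares were compared with exact permutation tests in scipy (version 1.17.1), without pairing by Set. Symbols came from GENCODE gene names for 62162 of the 62492 identifiers, and the marker PECAM1 was not matched. Promoter sequences came from RefSeq on GRCh38.p14, another build than that of the files, and were used as sequences only.

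The Set numbers come from the labels. Deviations from the group means correlated at 0.426, 0.253 and 0.503 between same-numbered libraries over 10840 genes and at -0.436 to 0.159 between libraries of different Sets, so the Sets were taken as pairs. Replicates differed by more than sampling noise in each pair of a group, so none was counted as a repeat. The total count per library, from 21765393 to 32659002, sets the precision. The members and lists were chosen with earlier results of these data known, so counts over them are not independent evidence. Values per library were given by rule for called genes whose log2 fold change reached 0.5 in either direction and for HIF1A, LDHA, SLC2A1 and VEGFA. From each further list at most 3 called genes with the largest change and an average log2 CPM of at least 1 were named. The values of 1 gene that this rule takes are not reported here.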

Additional observations from a re-analysis of the deposited data

How the results depend on the processing

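All 28 called genes kept their direction under the 16 alternatives, and 14 of them also kept their call under each: ADM, BNIP3, BNIP3L, ENO1, ENO2, GAPDH, GPI, LDHA, PFKM, PGAM1, PGK1, PKM, SLC2A1 and TPI1. DESeq2 called 3 listed genes higher, 3 of the other HIF targets lower, and 2596 of all genes higher and 2610 lower. On the log2(TPM + 1) scale limma called 1 listed gene higher, a glycolytic enzyme, and 1643 of all genes, with medians of -0.23 for the list and -0.28 for the enzymes, and with a pseudocount of 0.1 these values were 1, 1638, -0.24 and -0.28. There HK1 turned to -0.0241, NDRG1 to -0.0223 and P4HA1 to -0.0550, or to -0.0245, -0.0225 and -0.0561 with the smaller pseudocount. Without the replicate block, 16 listed genes were lower and 4 higher, 10 enzymes and 4 other HIF targets were lower, and 3096 of all genes rose and 3068 fell. In a fit with the Set as a block, leaving out 1 library leaves the other library of its Set without a partner. With each library left out in turn, the other HIF targets called lower ranged from 3 to 6 and those called higher from 0 to 1 (EGLN1), and the listed genes called lower from 16 to 22. SLC16A3 ranged from -0.0704 to 0.0442, positive without either library of Set 1, and NDRG1 from -0.0277 to 0.0912, negative without either library of Set 2. The difference in the ALDOC share ranged from -0.0971 to 0.589 percentage points and that in the ENO2 share from -0.220 to 0.0513, the latter turning to 0.0164 without siControl Set 1. The cause of these shifts was not tested. CA9 had no value with at least 10 counts required in every library, and no adjusted p in DESeq2. Depth limits CA9, which had 8 to 24 counts per library.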
